A study of Homo sapiens with 6 samples.

Results

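The genes described here encode potassium channels, other than the subunits of the ATP-sensitive (KATP) channel, in EndoC-βH1, an insulin-secreting cell line made from human pancreas. They were taken as the rows whose symbol is KCN followed by letters and a number, with KCNJ11, KCNJ8, KCNQ1 and KCNK9 left out, which gave 91 of the 26485 genes in the table. RNA was sequenced from 6 cultures. According to the submitters every culture had received lentiCRISPRv2, which brings in the Cas9 nuclease by lentivirus, and was grown as a stable line after antibiotic selection. In 3 libraries, labelled Empty, with genotype WT, the vector held no guide. In the other 3, labelled sgZHX3-3, with genotype ZHX3 KO, it held 1 guide, aimed at the first exon with coding sequence of ZHX3, whose product carries zinc fingers and homeodomains and is known as a transcriptional repressor. The question was how deletion of ZHX3 changes the RNA of beta cells. All libraries of the guide group share that guide, and the labels do not say whether the biological replicates came from lines made separately or from 1 line, so p-values may measure only the spread between cultures.

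Potassium channels set the resting membrane potential of a beta cell and end each burst of electrical activity that drives insulin release. Voltage-gated (Kv) channels open on depolarisation and repolarise the membrane. M-type (KCNQ) and EAG, ERG and ELK (KCNH) channels hold firing in check near threshold. Calcium-activated channels couple repolarisation to calcium entry, inward rectifiers and K2P leak channels stabilise the resting potential, and auxiliary subunits tune the gating and surface level of the pores they bind.

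Each library held between 45101454 and 61051884 counts, and the 91 channel genes took between 0.137% and 0.174% of them. The RNA of ZHX3 itself was raised and not lowered in the guide group, in CPM, counts scaled to library size (105 ± 4.19 CPM in Empty and 177 ± 8.62 CPM in sgZHX3-3, SD, n = 3; log2 fold change 0.75, edgeR adjusted p = 1.62e-05). The RNA level thus gives no sign of the knockout, but RNA counts cannot show whether the ZHX3 protein was lost. Each direction given here is that of the libraries as labelled. In bulk RNA, fewer cells of a type and less RNA per cell cannot be told apart. All 8 beta cell markers were present, with INS between 5206 and 7118 CPM, and the endothelial markers PECAM1, VWF and CDH5 summed to at most 0.0802 CPM in any library. Markers of neurons (4 genes) summed to between 38.0 and 45.0 CPM in Empty and between 52.2 and 54.4 CPM in sgZHX3-3. Of these SLC17A6, a glutamate transporter, was higher (0.37, edgeR adjusted p = 0.00381) and was the only neuron marker called. It made up most of each sum, with 34.8 to 40.6 CPM in Empty and 47.2 to 49.2 CPM in sgZHX3-3. GAD1 and SLC17A7 lay under 1 CPM in each library. The part of the neuron markers in the channel results was not tested. Of the markers of other islet and pancreatic cells, CPA1 was higher (0.31, 0.0145) and IRX2 lower (−0.34, 0.00728). Libraries of both groups stood apart from others of their group. The chi-square per gene was 3.63 between Empty 2 and 3, but 23.3 and 22.3 between them and Empty 1. It was 4.57 between sgZHX3-3 libraries 1 and 2, but 21.4 and 12.9 between them and library 3. Between Empty 1 and sgZHX3-3 libraries 1 and 2 it was 18.9 and 21.5, below the values between Empty 1 and Empty 2 or 3. The chi-square was computed on counts, so it also grows with the depth of the libraries compared. The summed level of 7 genes of the NRF2 oxidative stress response was 977, 1496 and 1569 CPM in Empty 1, 2 and 3 and between 648 and 759 CPM in the libraries labelled sgZHX3-3. That of 6 heat shock genes was 2080.2, 2766 and 3018 CPM in Empty and between 2080.1 and 2404 CPM in sgZHX3-3. The part of these differences in the results below was not tested, and values with Empty 2 and 3 both left out are given beside the called genes and others that moved. In that setting the lone Empty library is assumed to vary like the others.

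Potassium channel genes mostly rose where they changed. Of the 91 genes, 53 passed the filter on low counts and were tested, and each of the 53 lay above the filter level of 0.202 CPM in all 6 libraries. Of these 53, 15 were higher and 1 was lower in sgZHX3-3 at an adjusted p below 0.05 (edgeR). That is 28.3% higher and 1.89% lower, where 7.11% of all 16199 tested genes were higher and 4.98% lower (12.1% in either direction). The changes were small. Among the 15 genes the log2 fold change, the log2 of the level in sgZHX3-3 over that in Empty, ran from 0.19 to 0.97 with a median of 0.36. Over all 53 tested channel genes the median was 0.09, beside −0.0020 over all tested genes. The groups did not overlap for 23 of the 53 (43.4%), 20 of them higher and 3 lower in sgZHX3-3. Over all tested genes the groups did not overlap for 32.0%, with 16.0% in each direction.

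**Figure D1:**
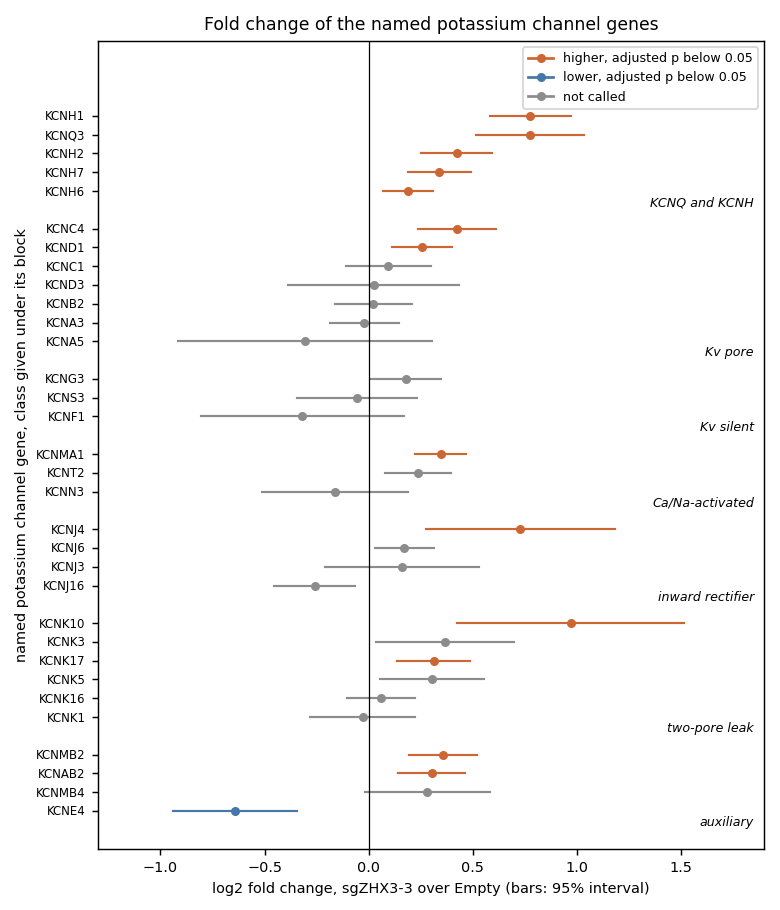
Log2 fold change (x axis) of 32 of the 53 tested potassium channel genes, those named in the text (y axis, grouped by class), sgZHX3-3 over Empty, with 95% intervals from edgeR, n = 3 libraries a group. The higher genes lie between 0.19 and 0.97, and KCNE4 is the only gene called lower, at −0.64.

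The count of higher channel genes depended on single libraries. It was 21 without Empty 1, 8 without Empty 2, 6 without Empty 3 and 8 without sgZHX3-3 library 2, while 10.9%, 3.42%, 2.89% and 3.01% of all tested genes were higher in those settings. It was 3 with Empty 2 and 3 both left out (1.26% of all tested genes), KCNQ3 and KCNH1 among them. KCNE4 lost its call without Empty 2 or Empty 3 and with both left out.

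The K2P leak channels KCNK16 and KCNK17 (TALK-1 and TALK-2), which pass an alkaline-activated background current and are known from islets, had the most RNA for their length. Lengths here are the merged exons of each gene in GENCODE 29, which need not be the annotation the authors counted on. KCNK16 stood at 122 CPM per kb and KCNK17 at 65.6 CPM per kb, as means over the 6 libraries. Together they made up between 46.7% and 50.7% of the summed CPM per kb of all 91 genes in each library. Next in level per kb came the ERG channel KCNH2 (27.6), the G protein-gated inward rectifier KCNJ3 (21.3) and the delayed rectifier KCNA3 (20.2). KCNB2 (Kv2.2), a delayed rectifier known from human islets, stood at 6.82 CPM per kb. The first 5 places were the same when the longest coding transcript was used as the length. The summed CPM of the 91 genes was 1531, 1374 and 1347 in Empty 1, 2 and 3 and 1609.5, 1638 and 1763 in the libraries labelled sgZHX3-3, so the groups did not overlap.

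**Figure D2:**
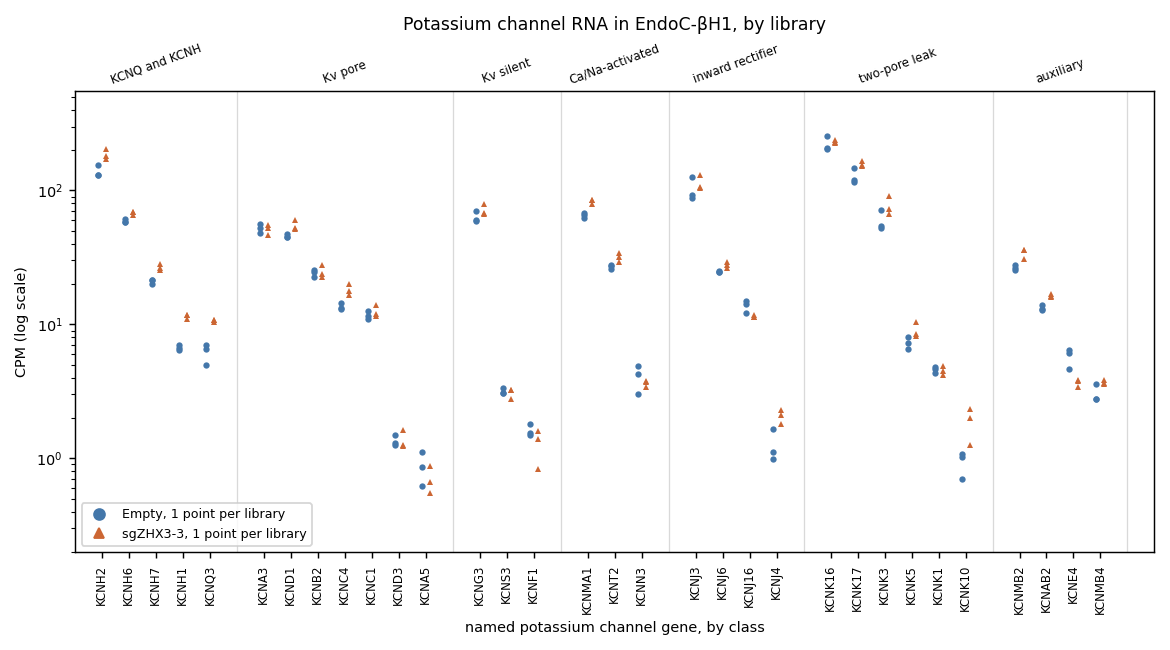
CPM on a log scale (y axis) of 32 of the 53 tested potassium channel genes (x axis, ordered within class by mean level), with 1 point for each of 3 Empty and 3 sgZHX3-3 libraries. The levels span from under 1 CPM to KCNK16, which lies between 204 and 255 CPM, and CPM is not adjusted for gene length.

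Of the classes used here, that of the M-type and EAG-family pores, in which KCNQ and KCNH genes are joined, had the largest share of called genes. This ranking depends on the grouping. Of 9 tested KCNQ and KCNH genes 6 were higher and 0 were lower, beside 7.11% of all tested genes higher and 4.98% lower. The class median was 0.34. KCNQ3 encodes a subunit of M-type channels, whose slow current damps repeated firing. KCNQ3 was at 4.96, 7.06 and 6.56 CPM in Empty 1, 2 and 3 and at 10.8, 10.8 and 10.4 CPM in sgZHX3-3, and the groups did not overlap. Its log2 fold change was 0.77 (standard error 0.120, edgeR adjusted p = 0.00149), and Empty 1 was the lowest library. KCNH1 (Kv10.1, EAG1), a slowly activating channel, was at 6.99, 6.42 and 6.72 CPM in Empty and at 11.8, 11.7 and 10.9 CPM in sgZHX3-3, at 0.78 (standard error 0.0891, adjusted p = 0.000233). The libraries of each group lay close together for this gene. KCNQ3 and KCNH1 kept their call in each of the 15 alternative fits. Of all tested genes spanning over 300 kb, as both do, 32.3% were higher. After correction for a trend of fold change with gene span KCNQ3 was at 0.63 (edgeR adjusted p = 0.00581) and KCNH1 at 0.60 (0.00150). With Empty 2 and 3 both left out they were at 1.10 (adjusted p = 0.00743) and 0.72 (0.0274).

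**Figure D3:**
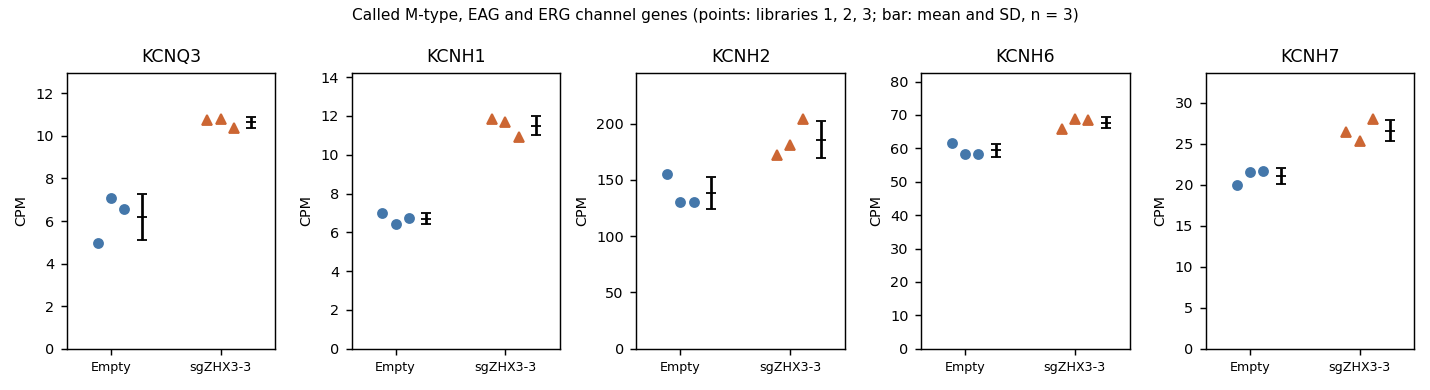
CPM (y axis, from 0) of 5 called KCNQ and KCNH genes in each Empty and sgZHX3-3 library (points), with the mean and SD of each group (bars, n = 3). For KCNH1 the Empty libraries lie between 6.42 and 6.99 CPM and the sgZHX3-3 libraries between 10.9 and 11.8 CPM.

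The 3 ERG channel genes KCNH2, KCNH6 and KCNH7, whose currents grow as the channels recover from inactivation during repolarisation, were all called higher. Of all tested genes 7.11% were higher, and 32.3% of those spanning over 300 kb, as KCNH7 does. The calls of all 3 depended on the setting, as given below. KCNH2 (hERG) was at 155, 130.2 and 130.2 CPM in Empty and at 172, 181 and 204 CPM in sgZHX3-3, at 0.42 (standard error 0.0790, edgeR adjusted p = 0.00510). Empty 1 lay above Empty 2 and 3, and with those 2 libraries left out KCNH2 was at 0.26 (adjusted p = 0.251). KCNH7 was at 19.99, 21.6 and 21.6 CPM in Empty and at 26.5, 25.4 and 28.01 CPM in sgZHX3-3, at 0.34 (adjusted p = 0.00890). Of its exon bases 3.80% overlap a gene on the opposite strand, and no source used here says whether counting was by strand. KCNH7 is a very long gene, and it was at 0.16 (adjusted p = 0.165) after correction for a trend of fold change with gene span. It was at 0.42 (0.0927) with Empty 2 and 3 left out. KCNH6 was at 61.6, 58.3 and 58.3 CPM in Empty and at 65.7, 68.7 and 68.6 CPM in sgZHX3-3, a small difference of 0.19 (adjusted p = 0.0410). KCNH6 was no longer called without Empty 2 (0.157) or Empty 3 (0.177), without sgZHX3-3 library 2 (0.172) or 3 (0.0804), with library totals alone (0.0782), and once Empty 2 and 3 were both dropped (0.14, 0.475). The tested ELK channel genes, which were not called, lay between −0.01 and 0.16.

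Promoter windows are shown for KCNH1 and KCNH6, which rose and are of the same family. Each runs 5′ to 3′ from 250 bases before the transcription start to 50 bases from it, in GRCh38.p14, with matches to the searched motifs in capitals.
KCNH1, chr1:211134099-211134398, minus strand: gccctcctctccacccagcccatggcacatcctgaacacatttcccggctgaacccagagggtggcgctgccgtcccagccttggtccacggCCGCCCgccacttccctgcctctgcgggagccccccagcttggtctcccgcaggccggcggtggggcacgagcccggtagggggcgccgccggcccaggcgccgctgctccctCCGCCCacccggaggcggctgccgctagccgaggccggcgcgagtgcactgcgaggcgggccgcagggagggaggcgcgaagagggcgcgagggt
KCNH6, chr17:63523108-63523407, plus strand: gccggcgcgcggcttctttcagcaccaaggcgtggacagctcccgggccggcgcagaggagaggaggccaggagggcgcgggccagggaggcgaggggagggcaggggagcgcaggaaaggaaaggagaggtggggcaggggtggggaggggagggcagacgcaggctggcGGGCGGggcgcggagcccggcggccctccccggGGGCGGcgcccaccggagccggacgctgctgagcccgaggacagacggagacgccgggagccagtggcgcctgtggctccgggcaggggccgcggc
Both strands were searched for 4 motifs. CCAAT is the box bound by NF-Y, a factor to which ZHX proteins are known to bind. The GC box was searched as GGGCGG, the letters that Sp1 and its relatives bind. The TATA box of core promoters was searched as TATAAA, and the cyclic AMP response element (CRE) as TGACGTCA. None of the motifs holds another. The KCNH1 window held 2 GC boxes, 158 and 45 bases before the start, and the KCNH6 window held 2, 79 and 46 bases before it. Of the 15 higher genes 11 had a window, and CCAAT was found in 4 of them (36.4%), beside 36.0% of 11548 windows of tested genes and 35.7% of all 27305 windows. The GC box was found in 6 of the 11 (54.5%), beside 67.9% of tested genes and 44.6% of all windows. The TATA box and the CRE were found in 0 of the 11, beside 5.91% and 3.12% of tested genes. KCNQ3, KCNH7 and KCNE4 had no entry among the windows read. KCNH1 spans chromosome 1 from 210676823 to 211134180 on the minus strand, and KCNH6 chromosome 17 from 63523334 to 63548977 on the plus strand (GENCODE 29, GRCh38).

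Among the pores of the Kv1 to Kv4 families (KCNA, KCNB, KCNC and KCND), 3 of 11 tested genes were higher and 0 lower. For all tested genes these shares were 7.11% and 4.98%. Among the risers were KCNC4, of the fast-activating Kv3 family, and KCND1, of the transient A-type Kv4 family. KCNC4 was at 13.2, 14.4 and 13.0 CPM in Empty and at 16.7, 17.6 and 20.1 CPM in sgZHX3-3, at 0.42 (standard error 0.0872, edgeR adjusted p = 0.00847). KCND1 was at 45.1, 47.0 and 45.2 CPM in Empty and at 51.4, 52.4 and 60.0 CPM in sgZHX3-3, at 0.25 (adjusted p = 0.0274). In both genes sgZHX3-3 library 3 was the highest and no library crossed between groups. KCNC4 lost its call without Empty 3 (0.0528). KCND1 lost it without Empty 2 (0.0776) or Empty 3 (0.120), without sgZHX3-3 library 2 (0.0719) or 3 (0.0787), and with library totals alone (0.0503). With Empty 2 and 3 both left out KCNC4 was at 0.47 and KCND1 at 0.28, near their values with all libraries, but neither passed (adjusted p = 0.126 and 0.258).

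Of the Kv1 (KCNA) and Kv2 (KCNB) families 0 of 3 and 0 of 2 tested genes were called, beside 12.1% of all tested genes. The Kv1 genes lay between −0.30 and 0.52, so not passing does not mean no change. KCNB2 was between 22.8 and 25.4 CPM in Empty and between 22.4 and 27.7 CPM in sgZHX3-3, at 0.02 with a 95% interval from −0.16 to 0.21 (edgeR adjusted p = 0.899). KCNA3, a delayed rectifier best known from lymphocytes, was between 48.5 and 56.1 CPM in Empty and between 46.3 and 55.7 CPM in sgZHX3-3, at −0.02 with an interval from −0.19 to 0.14. KCNC1 of the Kv3 family (0.09) and KCND3 of the Kv4 family (0.02) did not pass either. KCNC1 lay between 0.0055 (without sgZHX3-3 library 3) and 0.16 with any 1 library left out. KCNA5, a Kv1 gene at or under 1.12 CPM in each library, was at −0.30 and ranged from −0.51 (without sgZHX3-3 library 2) to −0.07 (without Empty 3). Of the electrically silent Kv subunits, which form no channel alone but modify Kv2 channels, 0 of 4 tested genes were called by edgeR (1 at an unadjusted p below 0.05). With DESeq2 or limma-voom 0 were called. Over all tested genes edgeR called 12.1%. KCNG3, the most abundant of them, was at 69.8, 59.3 and 60.0 CPM in Empty and at 68.2, 67.1 and 78.6 CPM in sgZHX3-3, at 0.18 (adjusted p = 0.152), and passed without Empty 1 (0.26, 0.0229), but was at 0.03 (0.922) with Empty 2 and 3 both left out. KCNF1 was at −0.32, with a range from −0.52 (without sgZHX3-3 library 3) to −0.10 (without sgZHX3-3 library 1) when any 1 library was left out, and KCNS3 was at −0.06.

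The large-conductance calcium-activated (BK) channel gene KCNMA1, whose product opens on both depolarisation and calcium and repolarises the action potential, rose together with KCNMB2, an auxiliary β subunit of the same channel that inactivates it. KCNMA1 was at 68.0, 65.2 and 62.8 CPM in Empty and at 85.1, 84.9 and 79.2 CPM in sgZHX3-3, at 0.35 (standard error 0.0570, edgeR adjusted p = 0.00219). KCNMB2 was at 27.7, 26.5 and 25.4 CPM in Empty and at 35.7, 35.9 and 30.6 CPM in sgZHX3-3, at 0.36 (standard error 0.0755, adjusted p = 0.00967). In both genes sgZHX3-3 library 3 was the lowest of its group and still lay above the highest Empty library. Both span over 300 kb, and with the gene span trend removed KCNMA1 was at 0.10 (adjusted p = 0.220) and KCNMB2 at 0.15 (0.174). KCNMB2 also lost its call without Empty 3 (0.0587) or sgZHX3-3 library 2 (0.0679). With Empty 2 and 3 both left out KCNMA1 was at 0.29 (0.126) and KCNMB2 at 0.30 (0.253). KCNMB4, a β subunit known from neurons, was at 3.57, 2.77 and 2.79 CPM in Empty and at 3.58, 3.63 and 3.85 CPM in sgZHX3-3, at 0.28 (adjusted p = 0.205), and passed without Empty 1 (0.41, 0.0482), but was at 0.05 (0.931) with Empty 2 and 3 both left out.

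Of the 4 tested genes for calcium- or sodium-activated pores KCNMA1 was the only one called (25%), beside 12.1% of all tested genes called. The sodium-activated channel gene KCNT2 lay just outside the threshold, at 27.6, 27.5 and 25.7 CPM in Empty and 34.2, 31.8 and 29.3 CPM in sgZHX3-3, at 0.24 (edgeR adjusted p = 0.0508). It passed without Empty 1 (0.0336) or sgZHX3-3 library 3 (0.0278), with DESeq2 (0.0278), with RLE size factors (0.0477), without an expression filter (0.0425) and with a filter of 1 CPM in 3 libraries (0.0490). With the gene span trend removed KCNT2 was at 0.09 (0.435), and it was at 0.20 (0.424) once Empty 2 and 3 were both dropped. The small-conductance (SK) channel KCNN3 was between 3.01 and 4.87 CPM in Empty and between 3.42 and 3.75 CPM in sgZHX3-3, at −0.16 with an interval from −0.51 to 0.19. KCNN3 was at −0.33 without Empty 1, −0.0028 without Empty 2 and 0.27 once Empty 2 and 3 were both dropped. The other SK and intermediate-conductance genes were too low to be tested. KCNN1 had 5, 3 and 5 counts in Empty and 0, 1 and 1 in sgZHX3-3, KCNN4 had at most 13 counts in any library, and KCNN2 had 0 in each.

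Among the inward rectifiers 1 of 7 tested genes was called (14.3%), near the 12.1% of all tested genes called. KCNJ4 (Kir2.3), a strong rectifier of low level here, was at 1.67, 0.997 and 1.12 CPM in Empty and at 1.81, 2.31 and 2.09 CPM in sgZHX3-3, at 0.73 (standard error 0.209, edgeR adjusted p = 0.0395). Empty 1 lay close to sgZHX3-3 library 1. KCNJ4 was no longer called without Empty 2 (0.166) or Empty 3 (0.154), without sgZHX3-3 library 2 (0.1496) or 3 (0.1005) and was at 0.32 (0.601) with Empty 2 and 3 both left out. KCNJ3 and KCNJ6 encode GIRK1 and GIRK2, the pores that inhibitory G protein-coupled receptors open. KCNJ3 was at 126, 92.2 and 87.2 CPM in Empty and at 104, 106 and 131 CPM in sgZHX3-3, so that the groups overlapped through Empty 1. It was at 0.16 (adjusted p = 0.565), passed without Empty 1 (0.35, 0.0239) and was at −0.15 with Empty 2 and 3 left out. KCNJ6 was at 24.4, 25.0 and 24.5 CPM in Empty and at 26.4, 27.7 and 28.99 CPM in sgZHX3-3, at 0.17 (adjusted p = 0.109), and at −0.02 with the gene span trend removed. KCNJ16 (Kir5.1), which forms channels with other Kir subunits, was at 14.9, 14.1 and 12.2 CPM in Empty and at 11.8, 11.4 and 11.3 CPM in sgZHX3-3. Its groups did not overlap, at −0.26 (adjusted p = 0.0772), and it passed with library totals alone (−0.30, 0.0440).

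Among the K2P leak channel genes 2 of 10 tested were higher, KCNK10 and KCNK17, and 0 lower. Of all tested genes 7.11% were higher and 4.98% lower. KCNK10 (TREK-2), a channel opened by membrane stretch and lipids, was at 0.705, 1.03 and 1.08 CPM in Empty and at 2.35, 2.01 and 1.26 CPM in sgZHX3-3. Its log2 fold change of 0.97 was the highest of the 53 genes, (standard error 0.252, edgeR adjusted p = 0.0265), and sgZHX3-3 library 3 lay near the Empty libraries. It was no longer called without Empty 2 (0.0705) or Empty 3 (0.0622), without sgZHX3-3 library 1 (0.0866) or 2 (0.0994) and was at 1.39 (0.129) with Empty 2 and 3 both left out. KCNK17 was at 147, 115 and 119 CPM in Empty and at 155, 153 and 165 CPM in sgZHX3-3, at 0.31 (standard error 0.0810, adjusted p = 0.0265). Empty 1 lay nearer to the guide group than to Empty 2 and 3. KCNK17 kept its call without Empty 1 but not without any of the remaining 5 libraries (adjusted p from 0.05002 to 0.127) and was at 0.11 (0.583) with Empty 2 and 3 both left out.

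KCNK16, the most abundant of the 91 genes, did not pass. It was at 255, 207 and 204 CPM in Empty and at 231, 226 and 237 CPM in sgZHX3-3, at 0.06 with a 95% interval from −0.10 to 0.22 (edgeR adjusted p = 0.658). The highest library was Empty 1, and the gene passed without it (0.17, 0.0247) and was at −0.14 with Empty 2 and 3 left out. KCNK16 (from 39314698 to 39322968) and KCNK17 (from 39299001 to 39314553) are neighbours on the minus strand of chromosome 6, with 144 bases between them, and reads near that boundary could be counted for either gene. KCNK5 (TASK-2), an acid-sensitive leak channel in the same cluster, was at 7.29, 8.03 and 6.58 CPM in Empty and at 8.46, 10.4 and 8.23 CPM in sgZHX3-3, at 0.30 (adjusted p = 0.107). KCNK3 (TASK-1), another acid-sensitive leak channel, was at 71.3, 54.6 and 52.3 CPM in Empty and at 66.5, 72.7 and 90.2 CPM in sgZHX3-3, at 0.37 (adjusted p = 0.140), and passed without Empty 1 (0.52, 0.00830). Without sgZHX3-3 library 3 it was at 0.23 (0.316), and it was at 0.10 (0.789) once Empty 2 and 3 were both dropped. KCNK1 (TWIK-1) was at −0.03 with an interval from −0.28 to 0.22.

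Among the auxiliary subunits 2 of 8 tested genes were higher, KCNMB2 and KCNAB2, and 1 was lower, KCNE4. The shares over all tested genes were 7.11% higher and 4.98% lower. KCNE4, a single-pass subunit known to inhibit KCNQ1 and Kv1 channels, was at 4.62, 6.13 and 6.42 CPM in Empty and at 3.76, 3.85 and 3.42 CPM in sgZHX3-3. Its log2 fold change was −0.64 (standard error 0.138, edgeR adjusted p = 0.0106), and Empty 1 lay between the other Empty libraries and the guide group. KCNE4 lost its call without Empty 2 (0.0584) or Empty 3 (0.0653) and was at −0.33 (0.402) with both left out. KCNAB2, a cytoplasmic Kv β subunit with the fold of an oxidoreductase, was at 12.9, 13.9 and 13.1 CPM in Empty and at 15.9, 16.9 and 16.4 CPM in sgZHX3-3, at 0.30 (adjusted p = 0.0213). It was no longer called without Empty 2 (0.0515) or Empty 3 (0.0988), or without sgZHX3-3 library 2 (0.112) and was at 0.35 (0.167) with Empty 2 and 3 left out.

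**Figure D4:**
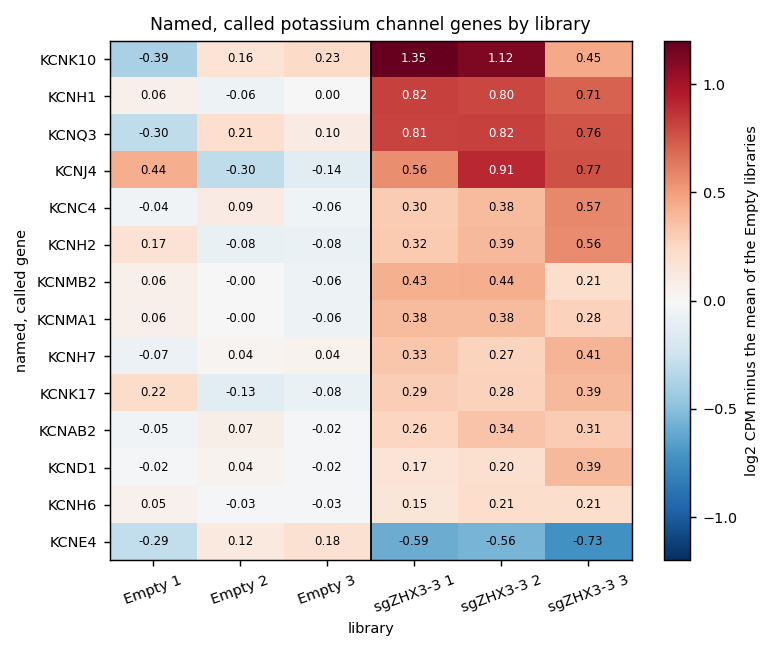
Log2 CPM minus the mean of the 3 Empty libraries (colour and printed value) for 14 of the 16 called genes (rows) in each library (columns). Empty 1 departs from Empty 2 and 3 in KCNJ4, KCNK17 and KCNH2 toward the sgZHX3-3 libraries, and in KCNK10 and KCNQ3 away from them.

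With Empty 2 and 3 left out, KCNK10, KCNQ3, KCNC4, KCNH7, KCNAB2 and KCND1 had fold changes above their values with all libraries, and the other higher genes had smaller ones. All 15 stayed above 0 and KCNE4 below 0. In the same libraries the beta cell marker genes, summed, were at 8903, 7277 and 7198 CPM in Empty 1, 2 and 3 and between 8717 and 10226 CPM in sgZHX3-3, and 6 of those 8 markers were called higher. Their part in the channel results was not tested.

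**Figure D5:**
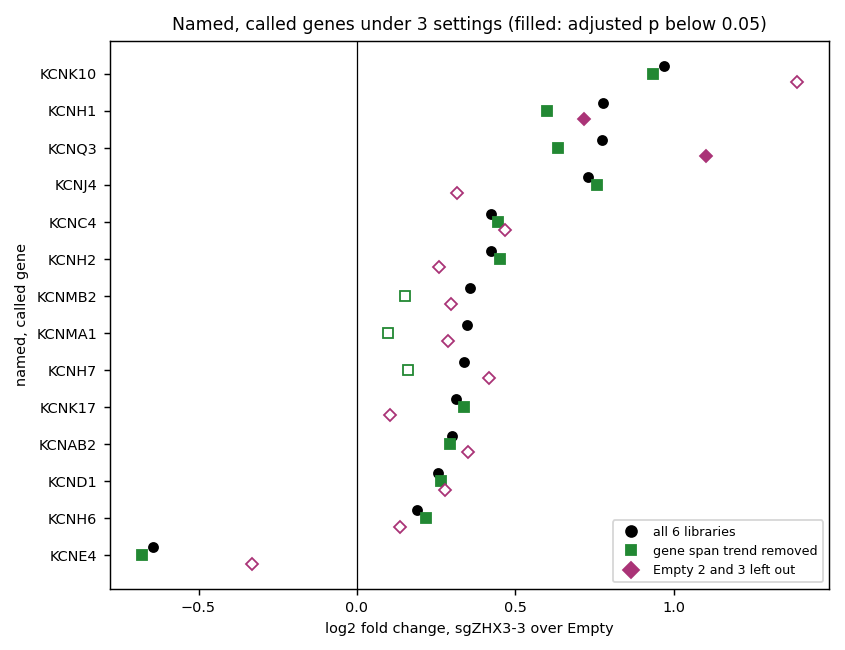
Log2 fold change (x axis) of 14 of the 16 called genes (y axis) with all 6 libraries, with a trend with gene span removed, and with Empty 2 and 3 left out, with filled symbols for adjusted p below 0.05. KCNQ3 and KCNH1 are filled in all 3 settings, and KCNMB2, KCNMA1 and KCNH7 are open once the span trend is removed.

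The called channel genes were found at every level and gene length, although long and abundant genes were more often called higher in the whole table. Tested channel genes had a median span of 71.8 kb, beside 30.9 kb for all tested genes with a known span. Of genes spanning over 300 kb, 5 of 11 channel genes and 32.3% of all tested genes were higher. Of those spanning up to 30 kb, 5 of 17 channel genes were higher, beside 4.86% of all tested genes. Between 30 and 100 kb 3 of 13 channel genes were higher, beside 5.7% of all tested genes. Between 100 and 300 kb 2 of 12 were higher, nearer to the 11.5% of all tested genes. With the span trend removed 12 channel genes were higher (6.23% of all tested genes) and KCNE4 was lower. By level, 7 of 12 channel genes at 50 CPM or more on average were higher (10.7% of all tested genes at that level), as were 6 of 18 between 5 and 50 CPM (6.88%) and 2 of 23 below 5 CPM (3.21%).

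Genes for other proteins of membrane excitability, which are no members, were read from fixed lists. Of 8 channel partner genes 5 were tested and 2 were higher, DPP6 (0.32, edgeR adjusted p = 0.00466) and DPP10 (0.32, 0.0319), whose products are auxiliary subunits of Kv4 channels. DPP6 was at 219, 195 and 189.8 CPM in Empty and at 247, 249 and 259.7 CPM in sgZHX3-3. Of the HCN genes, which encode hyperpolarisation-activated cation channels, HCN2 (0.34, 0.0149) and HCN4 (0.27, 0.0167) were higher and HCN3 (0.01) was not called. Of the 4 genes of the NALCN sodium leak complex, NALCN (0.38, 0.0250), UNC79 (0.21, 0.0338) and UNC80 (0.22, 0.0361) were higher. Of 3 intracellular cation channels 0 were called by edgeR (1 at an unadjusted p below 0.05). No gene of these lists was lower, beside 7.11% of all tested genes higher and 4.98% lower.

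The remaining 38 channel genes were too low to be tested. Of these, 9 had 0 counts in each library (KCNA4, KCNA10, KCNG4, KCNH5, KCNJ10, KCNJ13, KCNJ18, KCNN2 and KCNQ5), which allows a level of up to 0.0498 to 0.0671 CPM, counting 3 reads a library. The other 29 had at most 13 counts in any library. Among them are KCNA6 and KCNIP1, for which at most 3 and 1 counts were found. All exon bases of KCNA6 overlap another gene on the same strand, and 24.3% of those of KCNJ13 overlap a gene on the opposite strand (GENCODE 29), so their counts are uncertain. KCNU1, a sperm-specific relative of KCNMA1, had 9, 10 and 8 counts in Empty and 1, 2 and 3 in sgZHX3-3. It was not called when the expression filter was dropped (edgeR adjusted p = 0.0567). KCNJ12 and KCNJ18 are near-identical copies, so their counts, 0 or 1 in each library, are uncertain.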

How the data were processed

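Libraries of 6 EndoC-βH1 cultures were made with a stranded NEBNext kit, per the labels' protocols. The submitters' processing notes name STAR, featureCounts and hg38, while versions, annotation and strand setting were not found in any source used. The deposited table holds counts of reads for each gene symbol, whole numbers that were not normalised. Columns were joined to samples by group and replicate letter.

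Computed here with R 4.3.3: filterByExpr of edgeR 4.0.16 (minimum count 10, total 15), TMM scaling, and the robust quasi-likelihood test of edgeR on group alone, fitted over all 16199 genes, with Benjamini-Hochberg adjustment over them, called at 0.05. CPM uses TMM library sizes. Standard errors are the absolute fold change over the root of F, and intervals are 95%. The common biological coefficient of variation was 6.91%. All 91 members were matched to GENCODE 29. The procedure was tested on simulated data.

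The members, classes and lists were chosen with earlier results of these data known. Some members and other items are not reported here. The text names called members, the 10 most abundant, a fixed set of islet channel genes, and members beside the threshold or near 0; KCNA3, KCNK5, KCNU1, KCNJ12 and KCNJ18 were chosen after their values were seen. Alternatives were RLE factors, library totals, 2 filters, DESeq2 1.42.0, limma-voom (limma 3.58.1), a replicate block, a gene span offset (lowess), libraries left out and a threshold of 0.01.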

Additional observations from a re-analysis of the deposited data

How the results depend on the processing

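Beside the 15 higher and 1 lower channel genes with all libraries, the count higher was 8 with the replicate block, 3 with Empty 2 and 3 left out together and 8 at an adjusted p below 0.01, and from 6 to 21 with any 1 library left out. The count lower was 2 with library totals only, 0 with Empty 2 and 3 left out together, 0 at an adjusted p below 0.01, and from 0 to 1 with any 1 library left out. The median log2 fold change of 0.09 was 0.0478 without an expression filter and 0.142 under the stricter filter (1 CPM in 3 libraries), and from 0.0926 to 0.17 with any 1 library left out. With the block KCND1, KCNH6, KCNJ4, KCNK10, KCNK17 and KCNAB2 were among the genes that lost their call (edgeR adjusted p from 0.0619 to 0.128). The labels number replicates alike in both groups but do not say whether same-numbered libraries were paired. Their deviations from the group means correlated at −0.138, 0.0685 and −0.142. With 3 libraries a group these values cannot show whether there was pairing, and the cause of the lost calls was not tested. Among genes that were not called, signs changed with Empty 2 and 3 left out together for KCNA3 (0.0901), KCNJ3 (−0.15), KCNK16 (−0.14), KCNN3 (0.27) and KCNS3 (0.0025), with library totals only for KCNB2 (−0.0150) and KCND3 (−0.0135), and with the gene span trend removed for KCNB2 (−0.13), KCND3 (−0.0533) and KCNJ6 (−0.0204). With 1 library left out they ranged from −0.0786 to 0.0523 for KCNA3, from −0.0753 to 0.0840 for KCNB2, from −0.11 to 0.10 for KCND3, from −0.0906 to 0.0281 for KCNK1 and from −0.10 to 0.0188 for KCNS3. No called gene changed sign in any of the 15 alternative fits. Of 511 values of 32 named genes under the alternatives, 420 kept direction and side of the threshold, 59 lost the call, 12 gained it and 20 changed sign. Only the 14 called genes among the 32 could lose a call, so all 59 losses fell on them. Values of genes that stayed uncalled are among the 420. Precision varied between genes, with standard errors from 0.0546 (KCNH6) to 0.252 (KCNK10) among the called ones. What part of this is depth and what part spread between replicates was not tested.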
